A study of Mus musculus with 8 samples.

Results

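The genes described here encode the glutathione and antioxidant enzymes of mouse cells. They were chosen by symbol on the array platform: the glutathione S-transferases of the alpha, mu, omega, pi, zeta, kappa and theta classes, the microsomal transferases, the glutathione peroxidases, the peroxiredoxins, every gene named Txn or with a name that starts so, the glutaredoxins, the genes of glutathione synthesis, the superoxide dismutases, catalase, sulfiredoxin, Nqo1 and the haem oxygenases. This gave 69 genes with 105 probes, of 16593 genes and 25697 probes on the array. The rule reads symbols and no measured value, but it was chosen with earlier results of these data known. Gsr, Prdx5 and Prdx6 also fall under these names and were not analysed here.

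Expression was read on 8 Illumina bead arrays, 5 of neural stem cells (NSCs) and 3 of their neuronal progeny. All cells were of the strain C57BL/6. The NSCs had been derived from mouse embryonic stem cells in monolayer culture and were kept in Euromed-N medium with N2, FGF2 and EGF, and they are labelled as lacking Tau-RedStar. The neurons had spent 4 days in N2B27, had then been replated in Neurobasal plus B27, and were purified by a flow cytometry gate for red fluorescence. The reporter, RedStar, was under the promoter of Tau, a microtubule protein of neurons. The groups therefore differ in medium, growth factors and sorting as well as in cell type, and these cannot be told apart. All arrays lay on 1 chip with the groups at separate positions, and array position cannot be told apart from group either. The labels name no separate cultures or animals, and p-values therefore cover only how these samples vary, which may be technical.

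Glutathione is a small thiol made from glutamate, cysteine and glycine. Transferases attach it to reactive compounds, and peroxidases spend it to reduce hydrogen peroxide and lipid peroxides. The thioredoxin system is a parallel line of defence in which thioredoxin, kept reduced by thioredoxin reductase and NADPH, regenerates the peroxiredoxins and other oxidised proteins. The transcription factor NRF2, encoded by Nfe2l2, drives many of these genes through a short DNA element, and in brain glia are known to hold a larger glutathione supply than neurons.

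Array medians lay between 80.3 and 84.7 signal units, and 36.5% to 39.7% of probes were detected on an array. Expression is given on the log2 scale after background correction and quantile normalization, on which the dimmest detected probe of an array read 5.05 to 5.27. Differences are neuron minus NSC, and a gene is said to be called, to rise or to fall where its adjusted p in limma, a linear model fitted across all probes, was below 0.05. In the sorted neurons 5 of 8 neuronal markers with a probe were higher, with a summed level of 2039 to 3099 on the NSC arrays and 5111 to 6993 on the neuron arrays, while Tubb3, Stmn2 and Snap25 were detected on no array. Of 8 astrocyte markers 4 were lower and 0 higher, with a summed level of 17468 to 19057 in NSCs and 4460.5 to 5208 in neurons, and Gfap and Aqp4 were detected on no array. Of 6 oligodendrocyte lineage markers 4 were higher, with sums of 10003 to 13168 and 15694 to 16874, and Mbp and Mog were detected on no array. Of 6 markers of neural stem cells 4 were lower and 1 higher, with sums of 6325 to 6932 in NSCs and 2657 to 2822 in neurons. Sox2 was higher, at 0.37, and Nes, at -0.16, was not called. The lower ones were Top2a, Tnc, Cd44 and Vim, the last at only -0.59. Of 5 microglia and macrophage markers 4 were detected on no array. The sums are linear, so the brightest genes of a list, such as Map2, Slc1a3 and Olig1, weigh most in them. The part of these cell types in the results below was not tested.

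Most of the antioxidant genes that could be tested were lower in neurons. Of the 69 genes 43 had a probe detected on at least 3 arrays; 24 of them fell, 8 rose and 11 were not called. Over all 7407 tested genes 64.6% were called, 29.2% lower and 35.4% higher, against 74.4% of the tested antioxidant genes, 55.8% lower and 18.6% higher. The share called was thus near that of all genes, while the direction differed, with a median difference of -0.44 against 0.06 for all genes. With genes detected in 1 group alone at their bound the median was again -0.44. Among falls 13 were of at least 1 on the log2 scale, and among rises 2, where 11.8% and 10.6% of all tested genes passed that size. Gss, Gstm2, Gstm6 and Nqo1 reached the filter by detection on NSC arrays only, so a rise could not have been seen for them. Of the 34 genes whose probe was detected on all 8 arrays, 20 fell, 5 rose and 9 were not called. The arrays of both groups did not overlap for 32 of the 43 genes, or 74.4%, where 61.1% of all tested genes did not. No test of the list as a whole was made.

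Without Neuron 1 the number of rises was 3 and without Neuron 3 it was 5, while the number of falls stayed between 23 and 25 when any 1 array was left out. Without a neuron array detection was required on 2 arrays in place of 3, and in both of these cases another probe stood for Glrx2. Rises over all genes also became fewer, but by less. They were 2434 of 7665 tested genes (31.8%) without Neuron 1 and 2395 of 7646 (31.3%) without Neuron 3, against 2624 of 7407 (35.4%). The share of tested antioxidant genes that rose was 6.8% without Neuron 1 and 11.6% without Neuron 3, against 18.6%. In bulk samples such as these, fewer cells of a type and less RNA per cell cannot be told apart.

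**Figure D1:**
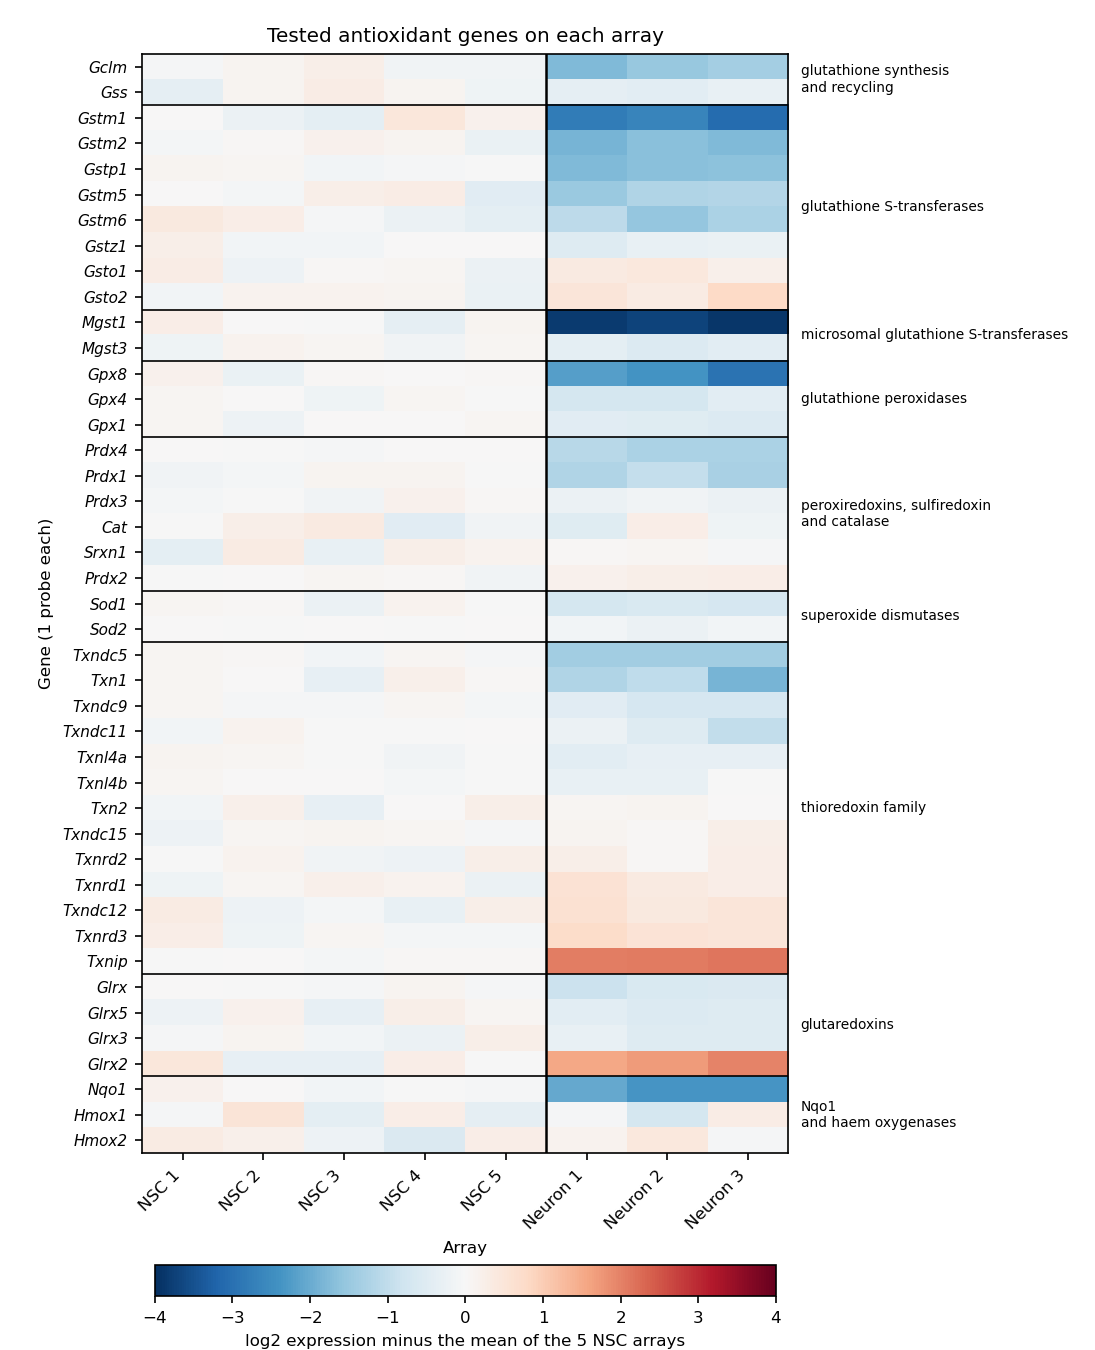
Heat map of the 43 tested antioxidant genes (rows, 1 probe each, grouped by role) on the 5 NSC and 3 neuron arrays (columns), coloured by log2 expression minus the mean of the NSC arrays, from blue (lower) to red (higher). Mgst1, Gstm1, Gpx8 and Nqo1 were the deepest blue on all 3 neuron arrays, and Txnip and Glrx2 the deepest red.

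**Figure D2:**
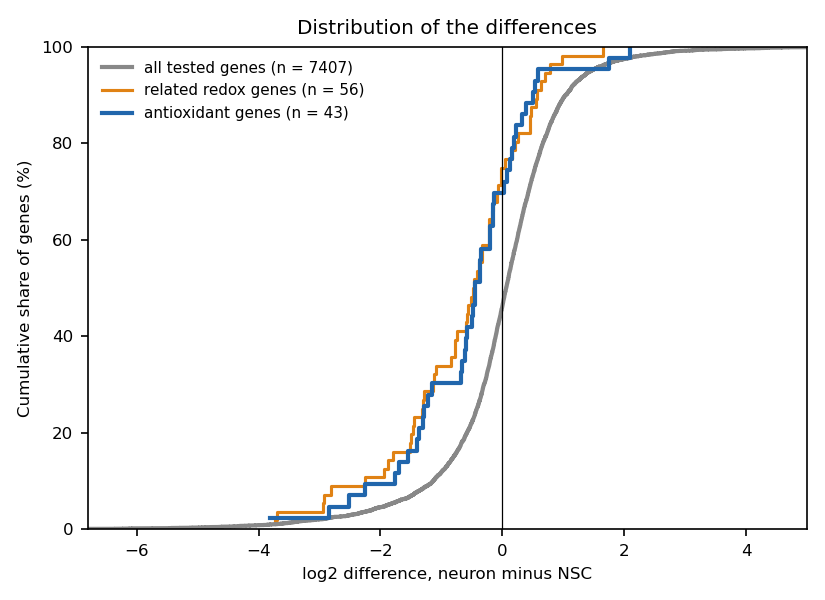
Cumulative share of genes (y axis, percent) with a log2 difference, neuron minus NSC, up to the value on the x axis, for the 43 antioxidant genes, 56 related redox genes and all 7407 tested genes. The medians were -0.44, -0.47 and 0.06. The curves of both redox lists lie to the left of that of all genes over most of the range. Both lists were chosen with earlier results of these data known.

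The antioxidant response element, the short element through which NRF2 acts, has the core TGACNNNGC. It was searched on both strands in RefSeq promoters of build GRCm38.p6 that run from 250 bases before to 50 bases after a gene's start, of which 62 of the 69 genes have at least 1. A match was found for 11 of the 62 genes, or 17.7%, against 14.0% of all genes with a promoter and 12.4% of all promoters. Among the tested genes with a promoter it was found for 9 of 41. It was found for 7 of 23 genes that fell, or 30.4% (Gclm, Gstm5, Mgst1, Prdx1, Sod1, Txndc11 and Txndc5). Of the genes that rose 1 of 8 had a match (Txnrd1), and of those not called 1 of 10 (Srxn1). Nqo1, an NRF2 target that fell, had no match. Whether matches were more common among the falls was not tested. A gene counts as matched where any of its promoters holds the core, so genes with more promoters have more chances of a match. Mgst1, Txndc11, Txndc5 and Txnrd1 each match in only 1 of several promoters. A match is a description of the letters and not a binding site. The promoters of Mgst1 (chr6:138140277-138140576, plus strand), Gclm (chr3:122245307-122245606, plus strand), Prdx1 (chr4:116685349-116685648, plus strand) and Txnrd1 (chr10:82858956-82859255, plus strand) are shown because they set 3 genes that fell beside 1 that rose, all with the same core. Each is written along the gene's strand with the match in capitals, which in all 4 reads as the core on the opposite strand and starts 56, 134, 133 and 92 bases before the start of the gene in the order given. In Prdx1 the match read on the other strand, TGACTCAGC, also holds TGACTCA, the letters of an AP-1 site, and in the other three it does not. Mgst1 has 2 promoters in the table and Txnrd1 has 3, and those with the match are shown.
Mgst1: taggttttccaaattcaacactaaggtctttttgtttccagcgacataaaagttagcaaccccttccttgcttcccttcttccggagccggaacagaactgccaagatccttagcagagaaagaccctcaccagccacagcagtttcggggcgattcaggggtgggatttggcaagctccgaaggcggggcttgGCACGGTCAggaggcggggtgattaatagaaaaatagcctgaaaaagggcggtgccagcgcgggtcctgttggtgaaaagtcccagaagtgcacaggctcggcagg
Gclm: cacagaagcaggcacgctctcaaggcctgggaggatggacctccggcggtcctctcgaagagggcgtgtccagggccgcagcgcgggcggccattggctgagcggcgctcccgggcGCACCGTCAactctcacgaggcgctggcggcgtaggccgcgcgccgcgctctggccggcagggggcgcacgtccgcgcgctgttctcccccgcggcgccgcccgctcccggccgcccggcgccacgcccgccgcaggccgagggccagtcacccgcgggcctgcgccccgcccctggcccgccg
Prdx1: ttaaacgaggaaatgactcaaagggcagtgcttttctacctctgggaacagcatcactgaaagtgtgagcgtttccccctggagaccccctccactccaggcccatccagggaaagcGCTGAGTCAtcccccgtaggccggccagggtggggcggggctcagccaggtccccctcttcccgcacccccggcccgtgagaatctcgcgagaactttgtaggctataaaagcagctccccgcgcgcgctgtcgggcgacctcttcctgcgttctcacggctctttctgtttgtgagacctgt
Txnrd1: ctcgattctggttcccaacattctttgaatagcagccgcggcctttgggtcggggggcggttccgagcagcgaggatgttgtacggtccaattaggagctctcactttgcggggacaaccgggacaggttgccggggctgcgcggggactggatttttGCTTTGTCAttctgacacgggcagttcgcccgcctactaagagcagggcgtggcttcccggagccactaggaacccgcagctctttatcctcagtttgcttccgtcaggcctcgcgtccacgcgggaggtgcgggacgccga

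Glutathione synthesis starts with glutamate-cysteine ligase, the rate-limiting enzyme, which has a catalytic subunit (Gclc) and a modifier subunit (Gclm). Gclm read 8.37, 8.51, 8.65, 8.27 and 8.29 on NSC 1 to 5 and 6.66, 6.90 and 7.05 on Neuron 1 to 3. Every neuron array lay below every NSC array, and means were 8.42 ± 0.16 (SD, n = 5) on NSC arrays and 6.87 ± 0.20 (n = 3) on neuron arrays. The difference was -1.55 (SE 0.13, adjusted p = 1.13e-06 in limma). Gclc had 1 probe, which was detected on no array. Gss, the synthetase that adds glycine in the final step, differed by -0.35 (95% interval -0.67 to -0.04) and was not called (adjusted p = 0.0513). Intervals here and below are not adjusted for the number of probes. It was called without NSC 1 (-0.45, adjusted p = 0.00942) and without NSC 5 (-0.40, adjusted p = 0.0423), and its probe was detected on 4 NSC arrays and no neuron array. The Gss difference was -0.15 in the authors' values and -0.12 as the mean of its tested probes, of which the second gave 0.11; neither alternative called it.

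Of 21 cytosolic glutathione S-transferase genes with a probe 8 were tested. Of these 6 fell and 2 rose, beside 29.2% lower and 35.4% higher over all tested genes. The falls were those of 4 of 6 mu class genes, 1 of 3 pi class genes and Gstz1, and the other mu and pi genes were detected on no array. Gstm1, of the mu class, read 8.89, 8.66, 8.50, 9.34 and 9.06 on NSC 1 to 5 and 6.10, 6.24 and 5.82 on Neuron 1 to 3. The groups were apart by more than 2 units at their nearest arrays, and the difference was -2.84 (SE 0.18, adjusted p = 1.50e-07 in limma). A second Gstm1 probe was detected on 1 NSC array and was not tested. Gstm2 read 6.16, 6.27, 6.38, 6.33 and 5.96 on NSC 1 to 5 and 4.35, 4.55 and 4.45 on Neuron 1 to 3, and it was detected on all NSC arrays and no neuron array, so that it was at least 2.15-fold lower (adjusted p = 1.65e-07). A second probe of Gstm2 was likewise called lower and likewise detected on NSC arrays alone, so a rise could not have been seen for either. Gstm5 read 7.02, 6.94, 7.24, 7.33 and 6.55 on NSC 1 to 5 and 5.52, 5.80 and 5.84 on Neuron 1 to 3, a difference of -1.30 (SE 0.17, adjusted p = 4.73e-05 in limma), with no overlap. Gstm6 read 6.30, 6.17, 5.86, 5.66 and 5.51 on NSC 1 to 5 and 4.84, 4.36 and 4.63 on Neuron 1 to 3, and it too was detected in NSCs alone, at least 1.73-fold lower in neurons (adjusted p = 1.07e-04). Gstm3 and Gstm4 were detected on no array. In the RefSeq annotation Gstm6, Gstm3, Gstm2, Gstm1 and Gstm4 follow one another on chromosome 3 with no other protein-coding gene between them. The 3 of these 5 that were tested all fell, but Gstm2 and Gstm6 were detected in NSCs alone. Among these 3 a rise could therefore have been seen only for Gstm1. The mu genes are close copies, so how far a probe reads only its own gene is uncertain. The fitted differences of Gstm2, Gstm5 and Gstm6 depended on background correction and were -0.86, -0.76 and -0.60 in the authors' values, which carry none.

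Gstp1, the pi class enzyme, read 12.09, 12.07, 11.87, 11.95 and 11.97 on NSC 1 to 5 and 10.23, 10.32 and 10.35 on Neuron 1 to 3. The neuron arrays spanned little and lay far below the stem cells, with means of 11.99 ± 0.09 (SD, n = 5) on NSC arrays and 10.30 ± 0.06 (n = 3) on neuron arrays. The difference was -1.69 (SE 0.09, adjusted p = 4.04e-08 in limma). A dimmer probe of Gstp1 gave -1.66. Gstp2 and Gstp3, its neighbours on chromosome 19 and near copies of it, were detected on no array, and how far the Gstp1 probes read these copies is uncertain. Gstz1, which isomerises maleylacetoacetate in tyrosine breakdown, fell by less, at -0.36 (SE 0.11, adjusted p = 0.0149 in limma), and was not called without Neuron 1 (-0.28, adjusted p = 0.0769) or with median scaling (-0.16, adjusted p = 0.281).

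The omega class, whose members reduce dehydroascorbate, went the other way. Gsto2 read 5.03, 5.29, 5.29, 5.25 and 4.87 on NSC 1 to 5 and 5.64, 5.47 and 5.95 on Neuron 1 to 3. All neuron values were above all NSC values, by a difference of 0.54 (SE 0.14, adjusted p = 0.00553 in limma), although the probe was near background and the difference was 0.24 in the authors' values and 0.35 as the mean of its 2 probes. Its neighbour on chromosome 19, Gsto1, was higher by 0.32 (SE 0.13, adjusted p = 0.0488 in limma), with arrays that overlapped. The Gsto1 call was lost without NSC 2, 3, 4 or 5 (adjusted p = 0.0973, 0.0609, 0.0557 and 0.0956) and without Neuron 1, 2 or 3 (adjusted p = 0.117, 0.152 and 0.0560), with values from 0.27 to 0.38, and with median scaling the difference was 0.54. It was also lost with cyclic loess and with no filter. All alpha and theta transferases and Gstk1, the kappa enzyme, went untested. Of these, Gsta3 and Gsta4 were each detected on 1 NSC array, and the others on no array.

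The microsomal transferases sit in membranes and form a family of their own. Mgst1, which also reduces lipid peroxides, showed the largest difference of all tested antioxidant genes. It read 10.71, 10.44, 10.42, 10.06 and 10.56 on NSC 1 to 5 and 6.62, 6.73 and 6.55 on Neuron 1 to 3. The NSC arrays differed among themselves by less than 0.7 and the neuron arrays by less than 0.2, and the difference was -3.81 (SE 0.14, adjusted p = 1.16e-09 in limma), a 14.0-fold fall. Over all 17 processing alternatives the Mgst1 difference lay between -3.91 and -3.20. A second Mgst1 probe was detected on no array. Mgst3 fell by far less, at -0.45 (SE 0.10, adjusted p = 0.00294 in limma) on its brighter probe, while its dimmer probe gave 0.18. As the mean of both probes Mgst3 was not called (-0.14, adjusted p = 0.211), nor was it with median scaling (-0.22, adjusted p = 0.0894). Mgst2 was detected on 1 NSC and 1 neuron array and was not tested.

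**Figure D3:**
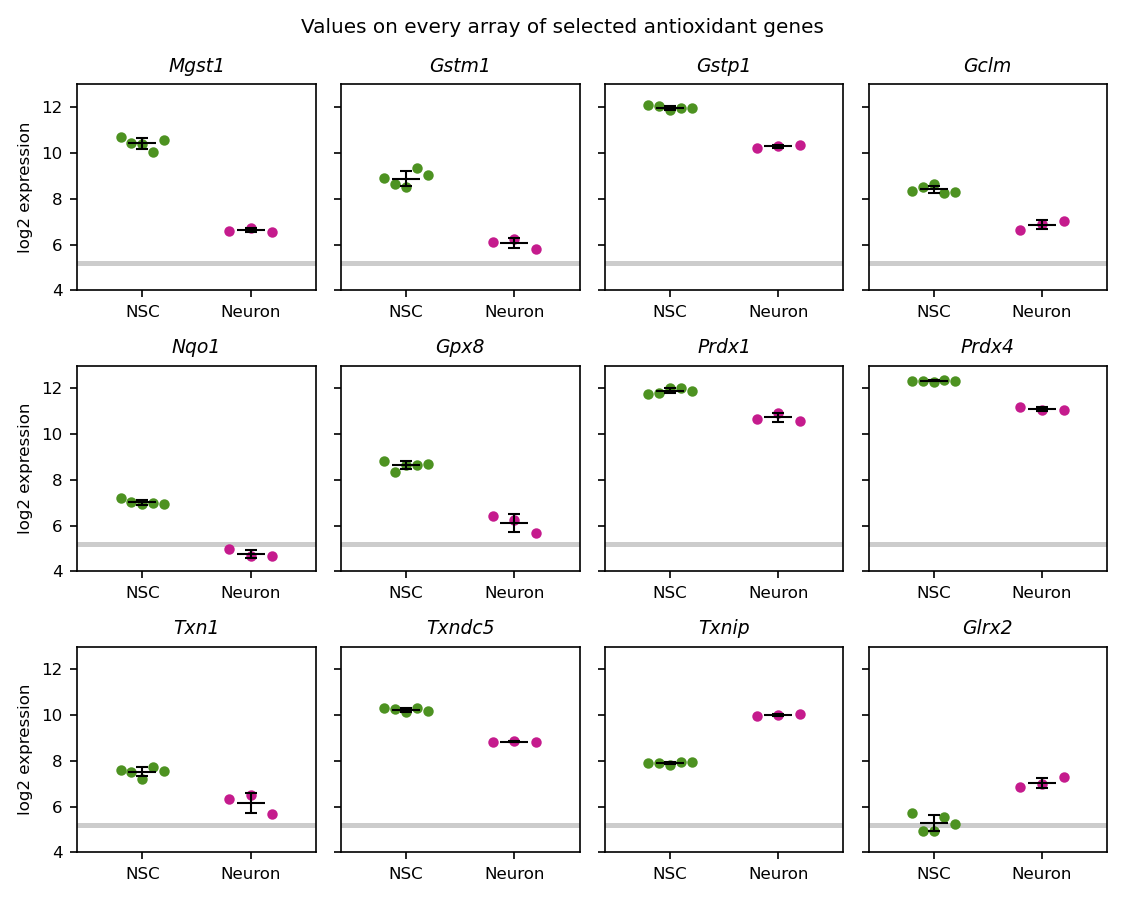
Log2 expression (y axis) of 12 antioxidant genes on the 5 NSC arrays (green) and 3 neuron arrays (magenta), with bars for the mean ± SD and a grey band over the dimmest detected probes of the arrays, 5.05 to 5.27. The groups do not overlap for any of the 12 genes, and Txnip and Glrx2 alone among them are higher in neurons.

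All 3 glutathione peroxidases tested fell, where 29.2% of all tested genes fell. Gpx8, a peroxidase of the endoplasmic reticulum, read 8.82, 8.36, 8.67, 8.66 and 8.68 on NSC 1 to 5 and 6.42, 6.25 and 5.68 on Neuron 1 to 3. Its neuron values spread more than those of the stem cells but stayed well below them, with a difference of -2.52 (SE 0.17, adjusted p = 1.88e-07 in limma). All 3 of its probes were called lower, at -2.52, -2.67 and -1.81. The last of these was detected on NSC arrays alone, so a rise could not have been seen for it. Gpx1, the main peroxidase of cytosol and mitochondria, fell by less, with a mean of 12.93 ± 0.12 (SD, n = 5) on NSC arrays and 12.44 ± 0.05 (n = 3) on neuron arrays. The difference was -0.49 (SE 0.10, adjusted p = 0.0012 in limma). Gpx4, which removes lipid peroxides from membranes and guards against ferroptosis, had a mean of 7.89 ± 0.10 (SD, n = 5) on NSC arrays and 7.28 ± 0.16 (n = 3) on neuron arrays. It fell, with a difference of -0.62 (SE 0.10, adjusted p = 3.64e-04 in limma). A dim second probe of Gpx4 gave 0.02, and the mean of both was -0.30. The other five genes with a probe were not tested: Gpx2 was detected on 1 neuron array, and Gpx3, Gpx5, Gpx6 and Gpx7 on no array.

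The peroxiredoxins, which reduce hydrogen peroxide at a cysteine, divided by member. Prdx1, a cytosolic peroxiredoxin, read 11.76, 11.80, 12.00, 12.00 and 11.87 on NSC 1 to 5 and 10.67, 10.95 and 10.58 on Neuron 1 to 3. Neurons were lower on every array, with a difference of -1.15 (SE 0.11, adjusted p = 4.85e-06 in limma). A second Prdx1 probe was detected on no array. Prdx4, the peroxiredoxin of the endoplasmic reticulum, read 12.34, 12.32, 12.29, 12.35 and 12.33 on NSC 1 to 5 and 11.20, 11.05 and 11.07 on Neuron 1 to 3. The 5 NSC arrays agreed to within 0.1, and the difference was -1.22 (SE 0.09, adjusted p = 3.48e-07 in limma). Prdx2, also cytosolic, read 12.79, 12.83, 12.89, 12.88 and 12.68 on NSC 1 to 5 and 12.99, 13.04 and 13.09 on Neuron 1 to 3. Every neuron array was above every NSC array, but by little, at 0.23 (SE 0.09, adjusted p = 0.0488 in limma). The Prdx2 call was lost without NSC 1, 2, 4 or 5 (adjusted p = 0.0778, 0.0728, 0.0549 and 0.104) and without Neuron 1, 2 or 3 (adjusted p = 0.0695, 0.108 and 0.133), with values from 0.19 to 0.25. It was also lost with median scaling, with cyclic loess and as the mean of the tested probes. The dimmer tested probe of Prdx2 gave 0.16 and was not called. Prdx3, the mitochondrial member, differed by -0.20 (95% interval -0.42 to 0.02) and was not called. Srxn1, which repairs overoxidised peroxiredoxins, was at 0.03 (95% interval -0.34 to 0.40), and Cat, the catalase of peroxisomes, at -0.14 (95% interval -0.58 to 0.30); neither was called.

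Superoxide dismutases turn superoxide into hydrogen peroxide. Sod1, the cytosolic enzyme, read 11.15, 11.12, 10.85, 11.22 and 11.06 on NSC 1 to 5 and 10.37, 10.46 and 10.42 on Neuron 1 to 3. Neurons were lower on each array, with a difference of -0.66 (SE 0.10, adjusted p = 2.01e-04 in limma). Sod2, the mitochondrial enzyme, read 9.91, 9.89, 9.91, 9.87 and 9.92 on NSC 1 to 5 and 9.78, 9.67 and 9.78 on Neuron 1 to 3. Its groups did not overlap either, but the difference of -0.16 (95% interval -0.34 to 0.03) was not called (adjusted p = 0.132). With median scaling Sod2 was at 0.05. Sod3, the extracellular enzyme, was detected on no array.

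The thioredoxin family held both the largest rise of the tested antioxidant genes and several falls. Of 18 genes 13 were tested, 5 fell, 4 rose and 4 were not called, and the 69.2% called is near the 64.6% of all tested genes. Txnip, which binds and inhibits thioredoxin and restrains glucose uptake, read 7.90, 7.92, 7.84, 7.96 and 7.95 on NSC 1 to 5 and 9.97, 10.00 and 10.06 on Neuron 1 to 3. Within each group the arrays lay within 0.2 of each other, and neurons were higher by 2.10 (SE 0.09, adjusted p = 3.34e-09 in limma), or 4.27-fold. Over all 17 alternatives its difference lay between 1.86 and 2.31. Txn1, the cytosolic thioredoxin that Txnip inhibits, read 7.59, 7.53, 7.19, 7.74 and 7.57 on NSC 1 to 5 and 6.31, 6.50 and 5.68 on Neuron 1 to 3. The groups did not overlap and Neuron 3 was the lowest array. Txn1 fell by 1.36 (SE 0.18, adjusted p = 6.32e-05 in limma). A dimmer probe of Txn1 was called lower too, at -0.45. It was detected on 3 NSC arrays and no neuron array, so a rise could not have been seen for it. In the authors' values the Txn1 difference was -0.89. Txn2, the mitochondrial thioredoxin, differed by 0.07 (95% interval -0.23 to 0.37) and was not called.

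Thioredoxin reductases keep thioredoxin reduced. Txnrd3, which joins a reductase to a glutaredoxin domain, had a mean of 6.75 ± 0.17 (SD, n = 5) on NSC arrays and 7.34 ± 0.14 (n = 3) on neuron arrays. It rose by 0.59 (SE 0.12, adjusted p = 0.00117 in limma). Txnrd1, the cytosolic reductase, rose by 0.39 (SE 0.13, adjusted p = 0.0208 in limma), but its probe was detected on only 2 NSC arrays, and the call was lost without Neuron 1 (0.30, adjusted p = 0.102) and in the authors' values (0.16, adjusted p = 0.0800). Txnrd2, the mitochondrial reductase, differed by 0.19 (95% interval -0.08 to 0.45) on its brighter probe and was not called, while its other probe was called at 0.42. As the mean of both probes Txnrd2 was called, at 0.30 (adjusted p = 0.0120).

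Other members carry a thioredoxin fold in proteins with other tasks. Txndc5, a protein disulphide isomerase of the endoplasmic reticulum, read 10.32, 10.27, 10.13, 10.30 and 10.18 on NSC 1 to 5 and 8.84, 8.85 and 8.84 on Neuron 1 to 3. The neuron arrays were almost equal and lay below all stem cell arrays, with a difference of -1.40 (SE 0.09, adjusted p = 1.56e-07 in limma). Txndc12, a small thiol oxidoreductase of the same compartment, rose by 0.50 (SE 0.15, adjusted p = 0.0121 in limma), and was not called without Neuron 1 (0.44, adjusted p = 0.0529). Txndc9, which acts with the chaperonin, and Txndc11 were lower, with differences of -0.60 (SE 0.10, adjusted p = 2.57e-04 in limma) and -0.59 (SE 0.15, adjusted p = 0.00537 in limma). The Txndc11 difference was -0.38 without Neuron 3, and in the authors' values Txndc9 and Txndc11 were at -0.29 and -0.25. Of the other tested probes of Txndc11, 1 was called at -0.38 and 1 gave -0.04 and was not called. Txnl4a, a component of the U5 spliceosomal particle, fell by 0.37 (SE 0.09, adjusted p = 0.00526 in limma), with 3 of its 4 probes called lower, and was not called with median scaling (-0.19, adjusted p = 0.154). Txnl4b at -0.20 and Txndc15 at 0.13 were not called, though Txnl4b was without Neuron 3 (-0.30, adjusted p = 0.0306). Txndc2, Txndc8, Txndc16, Txndc17 and Txnl1 were detected on no array.

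Glutaredoxins use glutathione to reduce protein disulphides or to carry iron-sulphur clusters. Glrx, the cytosolic enzyme, read 10.39, 10.36, 10.33, 10.47 and 10.32 on NSC 1 to 5 and 9.52, 9.75 and 9.81 on Neuron 1 to 3. The neuron arrays were all lower, with a difference of -0.68 (SE 0.10, adjusted p = 1.11e-04 in limma). Glrx2, found in mitochondria, read 5.73, 4.95, 4.95, 5.55 and 5.26 on NSC 1 to 5 and 6.85, 7.00 and 7.29 on Neuron 1 to 3 on its brighter probe. That probe was detected on 3 NSC arrays and all neuron arrays and rose by 1.76 (SE 0.19, adjusted p = 1.13e-05 in limma), with no overlap. A second probe was detected on all 8 arrays, differed by 0.41 and was not called (adjusted p = 0.0759). Without Neuron 1 or Neuron 3 this second probe had the higher mean and stood for the gene, at 0.49 (adjusted p = 0.0787) and 0.50 (adjusted p = 0.0725). The rise of Glrx2 therefore rests on 1 of 2 probes, and the mean of both was 1.08 (0.97 for the brighter probe in the authors' values). Glrx3 and Glrx5, which act in iron-sulphur cluster handling, were lower, with differences of -0.44 (SE 0.12, adjusted p = 0.00759 in limma) and -0.50 (SE 0.14, adjusted p = 0.00856 in limma). With median scaling Glrx3 was not called (-0.22, adjusted p = 0.148), and with that scaling Glrx5 was at -0.31. A dimmer tested probe of Glrx3 gave -0.41 and was not called.

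Nqo1, which reduces quinones and is a classic NRF2 target, read 7.20, 7.05, 6.93, 7.00 and 6.97 on NSC 1 to 5 and 4.98, 4.66 and 4.67 on Neuron 1 to 3. It was detected on every NSC array and on no neuron array, and was at least 3.77-fold lower in neurons (adjusted p = 1.48e-08 in limma). A second Nqo1 probe was detected on no array. In the authors' values the Nqo1 difference was -1.17. The haem oxygenases were not called. Hmox1, the inducible form and another NRF2 target, was detected on 2 arrays of each group and differed by -0.15 (95% interval -0.70 to 0.40). Hmox2, the constitutive form, differed by 0.17 (95% interval -0.29 to 0.62).

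**Figure D4:**
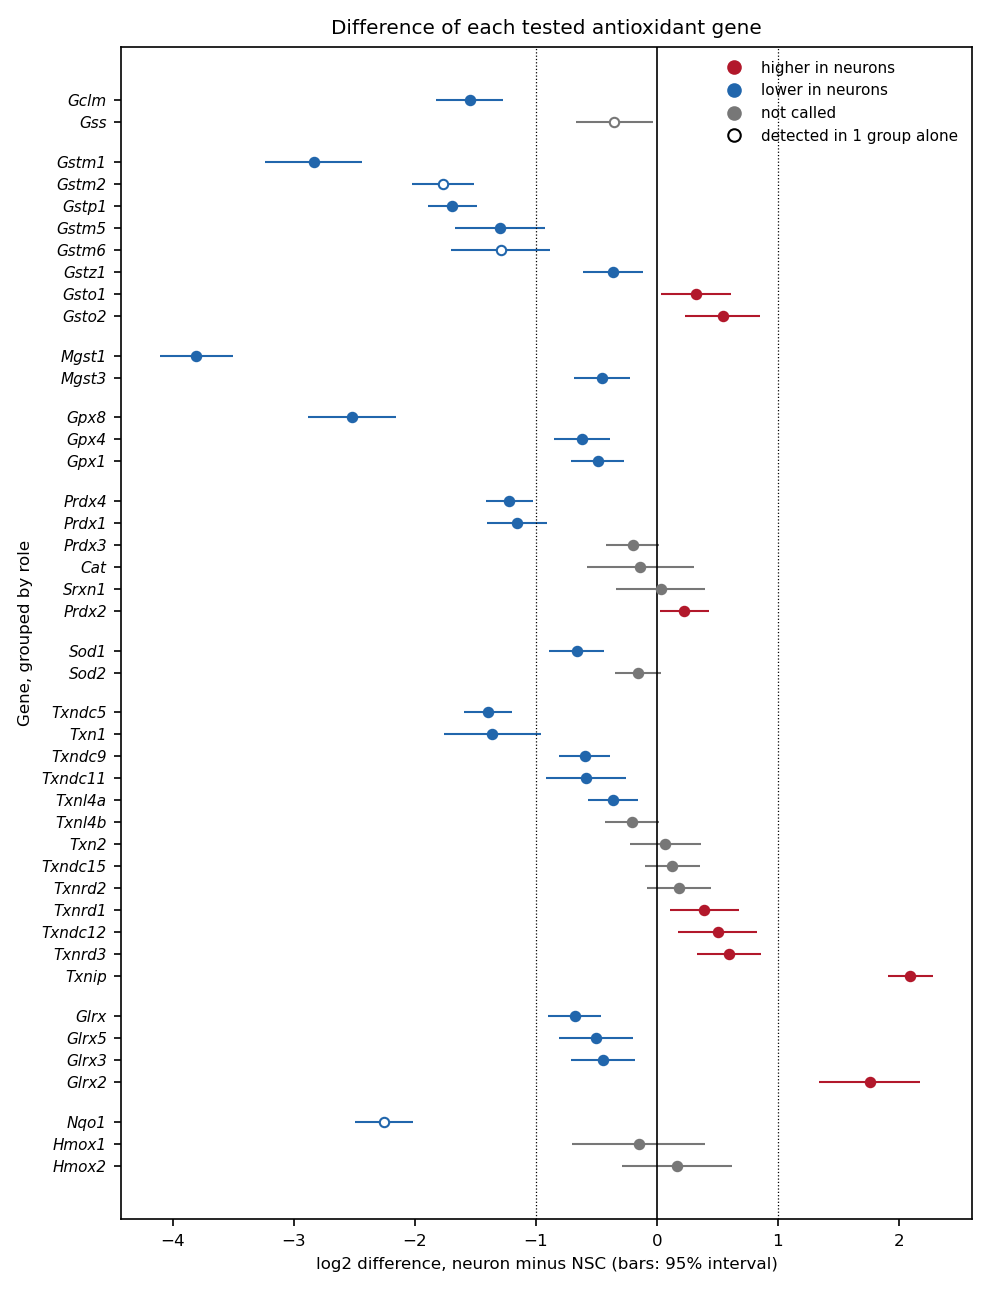
Log2 difference, neuron minus NSC (x axis), of the 43 tested antioxidant genes, grouped by role, with 95% intervals from the limma fit. Blue marks the 24 genes that fell, red the 8 that rose and grey the 11 not called; open circles are genes detected in 1 group alone, whose differences are not bounds, and dotted lines stand at -1 and 1.

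Some cytosolic and mitochondrial members of one enzyme family were set against each other. Taken as a ratio within each array, which asks only how far 2 genes changed relative to each other, Txn1 fell by 1.43 against Txn2 and Prdx1 fell by 0.95 against Prdx3. Sod1 fell by 0.51 against Sod2. Glrx fell by 2.44 against the brighter probe of Glrx2, which 2 NSC arrays did not detect, and the second Glrx2 probe changed by less (0.41 against 1.76). Glrx5, also mitochondrial, fell itself, at -0.50 against -0.68 for Glrx. In each of these 4 pairs of a cytosolic and a mitochondrial protein the ratios of the groups did not overlap. For Txnrd1 and Txnrd2 the ratio differed by 0.21 and the groups overlapped. Cytosolic Prdx1 also fell by 1.38 against cytosolic Prdx2, again without overlap. These pairs were chosen with the values known and carry no test. Related genes outside these pairs went both ways. Cytosolic Idh1 was at -0.46 and mitochondrial Idh2 at -1.46, while cytosolic Me1 was at -2.25 and mitochondrial Me2 at -0.75.

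The other 26 antioxidant genes had no tested probe. Their probes read between 4.20 and 5.34 over all arrays, and 22 of the genes were detected on no array. Nothing can be said of their direction.

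Related genes of the same pathways, which the naming rule does not hold, were also mostly lower. They were listed with earlier results of these data known, so they are no independent check. Of 83 with a probe 56 were tested, 33 fell, 9 rose and 14 were not called, so that 75.0% were called against 64.6% of all tested genes, and their median difference was -0.47. Nfe2l2, the gene of NRF2, read 6.00, 6.65, 6.15, 6.00 and 6.27 on NSC 1 to 5 and 4.68, 5.05 and 4.99 on Neuron 1 to 3. It was lower on all neuron arrays, of which 1 detected it, with a difference of -1.30 (SE 0.16, adjusted p = 2.73e-05 in limma), or -0.60 in the authors' values. Keap1, the adaptor that has NRF2 degraded, was at -0.09 (95% interval -0.34 to 0.17) and was not called. Of the 8 tested genes of NRF2 and its regulators 75.0% were called, against 64.6% of all tested genes. Among these 8 genes 4 fell, 2 rose and 2 were not called, where 29.2% of all tested genes fell and 35.4% rose. Besides Nfe2l2 the falls among the 8 were those of Nfe2l1, a factor related to NRF2 (-0.60), Mafg, a partner of NRF2 on DNA (-0.38), and Park7 (-0.33). Bach1, a repressor that competes for the same element, rose by 0.98 (SE 0.13, adjusted p = 5.82e-05 in limma), and Sqstm1, which sequesters KEAP1, by 0.69 (SE 0.09, adjusted p = 5.18e-05 in limma).

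Slc7a11, the cystine transporter that feeds glutathione synthesis, read 6.97, 6.85, 7.10, 6.95 and 6.69 on NSC 1 to 5 and 5.26, 4.79 and 4.84 on Neuron 1 to 3. The groups did not overlap. It fell by 1.95 (SE 0.14, adjusted p = 2.87e-07 in limma), or -1.01 in the authors' values, and 1 neuron array detected it. Slc1a1, a glutamate transporter through which neurons take up cysteine, read 4.54, 4.64, 4.46, 4.55 and 4.42 on NSC 1 to 5 and 6.21, 6.07 and 6.26 on Neuron 1 to 3, was detected on the neuron arrays alone and was at least 1.98-fold higher (adjusted p = 5.82e-08), with a fitted difference of 0.78 in the authors' values. The 2 uptake genes differed in direction, but Slc1a1 reached the filter by detection on neuron arrays only. A fall could not have been seen for it.

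Genes that supply NADPH, the reductant of both systems, fell in 9 of 10 cases and rose in 0, where 29.2% of all tested genes fell and 35.4% rose. The malic enzyme gene Me1, another NRF2 target, was at -2.25 (SE 0.27, adjusted p = 2.72e-05 in limma), or -1.38 in the authors' values, and was detected on 2 of the neuron arrays. Idh2, the mitochondrial isocitrate dehydrogenase, was at -1.46 (SE 0.14, adjusted p = 5.52e-06 in limma), Pgls, of the pentose phosphate pathway, at -1.32 (SE 0.11, adjusted p = 1.44e-06 in limma) and the folate enzyme gene Mthfd1 at -1.14 (SE 0.15, adjusted p = 4.13e-05 in limma). Of the 8 tested genes of cystine uptake and glutathione turnover 2 fell and 3 rose, so that 62.5% were called, near the 64.6% of all tested genes.

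Of 11 genes of selenoproteins and methionine sulphoxide repair 5 fell, 1 rose and 5 were not called, and 54.5% called is below the 64.6% of all tested genes. Selenop, which carries selenium between cells, was at -3.69 (SE 0.12, adjusted p = 4.84e-10 in limma), being detected on 1 neuron array, so that its size rests in part on background (-2.41 in the authors' values, and -2.64 as the mean of its probes). Selenoh was at -1.88 (SE 0.10, adjusted p = 3.55e-08 in limma) and the repair gene Msrb1 at -1.09 (SE 0.12, adjusted p = 1.32e-05 in limma), or -0.55 in the authors' values. Msrb2 was detected in NSCs alone, at least 2.23-fold lower in neurons (adjusted p = 2.29e-06), with a fitted difference of -0.71 in the authors' values.

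In the remaining groups iron storage and haem breakdown had 3 falls among 4 genes, and other detoxification had 10 falls and 3 rises among 15, beside 29.2% lower and 35.4% higher over all tested genes. Blvrb, a biliverdin reductase, was at -1.79 (SE 0.10, adjusted p = 4.60e-08 in limma) and the transferrin receptor gene Tfrc at -1.28 (SE 0.09, adjusted p = 3.40e-07 in limma). Ephx1, the microsomal epoxide hydrolase, was at -3.73 (SE 0.12, adjusted p = 4.29e-10 in limma), and the aldehyde dehydrogenase gene Aldh2 at -2.95 (SE 0.10, adjusted p = 9.48e-10 in limma). Nqo2, the quinone reductase related to Nqo1, was at -2.93 (SE 0.13, adjusted p = 5.57e-09 in limma), and the lactonase gene Pon2 at -2.80 (SE 0.09, adjusted p = 5.51e-10 in limma). Mt1, a metallothionein, was at -1.50 (SE 0.13, adjusted p = 1.87e-06 in limma), the ferroptosis suppressor gene Aifm2 at -1.46 (SE 0.18, adjusted p = 2.96e-05 in limma), or -0.85 in the authors' values, and the stress sensor gene Sesn2 at -1.11 (SE 0.13, adjusted p = 2.21e-05 in limma). All 9 of these genes were detected on every array of both groups.

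**Figure D5:**
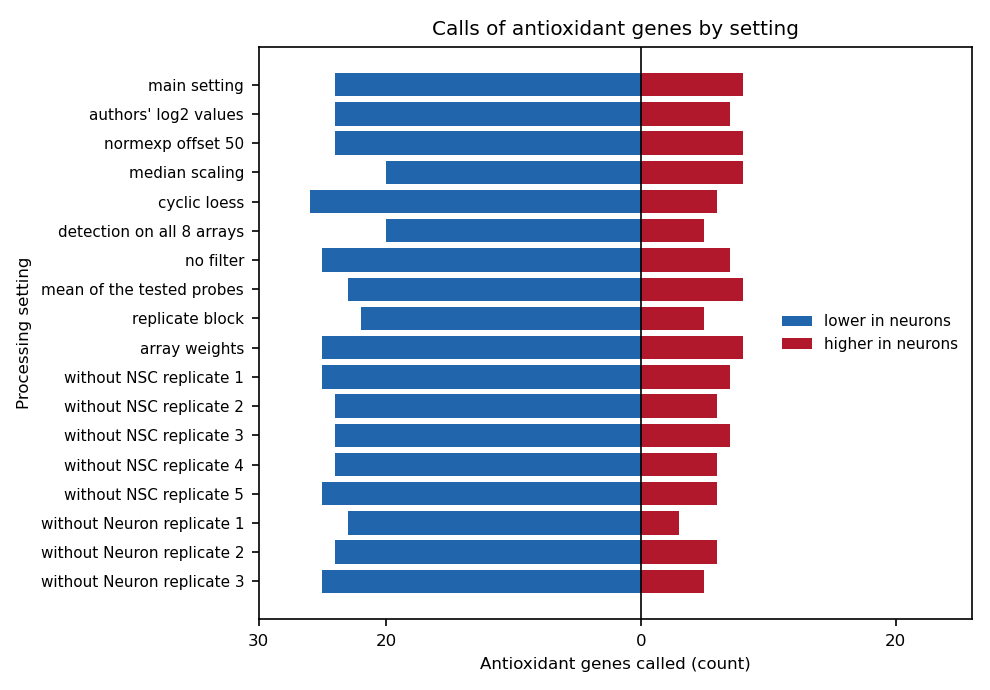
Number of antioxidant genes called lower (blue, to the left) or higher (red, to the right) in neurons under each processing setting (y axis). The number lower stayed between 20 and 26 and the number higher between 3 and 8, the lowest being without Neuron 1.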

How the data were processed

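The authors deposited an average bead signal per probe for 5 NSC and 3 neuron samples on Illumina arrays, an intensity on a linear scale with no background subtraction. A detection score, a fraction from 0 to 1, stands beside each deposited signal, and 1 minus it served as the detection p. The authors' deposited log2 values equalled quantile-normalized log2 signals to within 5.00e-09. Limma is named in the submitters' processing notes with no version, and the sources used here do not give the scanner software.

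Signals were background-corrected with neqc (limma 3.58.1, R 4.3.3; offset 16), quantile normalized and logged. The offset shrinks differences of dim genes. Probes detected (p below 0.01) on 3 or more arrays, 10499 of 25697, entered lmFit and eBayes with group as the term, and Benjamini-Hochberg adjustment ran over all of them. A gene was its tested probe with the highest mean. The platform table gives 23978 probes 1 symbol, 0 several and 1719 none. A probe detected in 1 group alone has a bound, taken against the higher of its own value and the dimmest detected probe on each array. Summed marker levels are linear, over 1 probe a gene.

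The members, lists and tests were chosen with earlier results of these data known. Array values are given for called members that changed by at least 1 on the log2 scale and for the largest called rise and fall of each role. Related genes called at that size were named, with Nfe2l2, Keap1 and Slc7a11. Bach1, Sqstm1, Nfe2l1, Mafg, Park7, the array values of Sod2 and of related genes, and the pairs of genes were picked after their values were seen. The 17 alternatives were the authors' values, an offset of 50, median scaling, cyclic loess, detection on all 8 arrays, no filter, the mean over probes, a replicate block, array weights and leaving out each array, with detection on 2 arrays where a neuron array was left out. Samples with the same replicate number did not deviate together (correlations of -0.017, 0.014 and 0.015), so the numbers were not taken to pair samples.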

Additional observations from a re-analysis of the deposited data

Results flagged for a closer look

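Among the 43 tested antioxidant genes, 1 had a stem cell array set apart from the other four. Gpx1 read 12.72 on NSC 2 against at most 13.02 on the others, and the gap to the nearest of them was 0.722 of the range of the NSC arrays, above the 95% critical value of 0.710 for 5 samples. Chance flags about 1 in 20 groups. The fall of Gpx1 in neurons was called under all 17 alternatives, including the one without NSC 2, with differences from -0.53 to -0.45. Groups of 3 were not checked.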

How the results depend on the processing

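Of the 32 called antioxidant genes 22 kept their call under every alternative that tested them, and none reversed; 10 lost it under at least 1, and 3 genes not called were called under at least 1. The number higher was 8, and it was 5 with detection on all 8 arrays, 5 with the replicate block, and between 3 and 7 without 1 array. The number lower was 24, and 20 with median scaling, 26 with cyclic loess and 22 with the replicate block. With the replicate block the antioxidant calls numbered 27 in all, against 32, and those of all genes 4332, against 4788. The calls lost were those of Glrx5 (-0.39, adjusted p = 0.0585), Gsto1, Gstz1, Prdx2 and Txnrd1; the titles' numbers did not pair the samples. With median scaling the all-gene median went from 0.06 to 0.23 and the antioxidant median from -0.44 to -0.22, a distance of -0.46 in place of -0.51. With no filter, where undetected genes count too, that distance was -0.08. Under median scaling 66.1% of the calls over all genes were higher in neurons, against 54.8%. Without background correction, in the authors' values, differences of probes near background were smaller, and that of Txnrd2, not called, was 0.08 and that of Hmox1, not called, -0.08. The related genes called numbered 42, and 35 (detection on all 8 arrays) to 45 (the authors' values) under the alternatives. Arrays give no counts, so signal over background and the number of arrays limit precision.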
